A study of Mus musculus with 14 samples.

Results

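WDR5 peaks called in MAF9 leukemia cells treated with MM-401 were compared with those called in the same cells treated with the solvent DMSO. The members were all WDR5 peaks on autosomes 1 to 19 in the lists of both conditions, 14289 of 14481 peaks in DMSO and 17067 of 17273 under MM-401. Together they were 31356 of the 532629 peaks in the 10 lists of the series. A peak was called kept when it shared at least 1 bp with a peak of the other list. It was called shifted when it shared none but lay within 2 kb of one, counted as the bases between the peaks. It was called absent when no peak of the other list lay within 2 kb.

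MAF9 cells are mouse bone marrow cells transduced with the MLL-AF9 fusion. They were grown in IMDM with 15% serum and IL-3 at 10 ng/ml and received MM-401 at 20 µM or DMSO for 2 days, and each ChIP used 15 µl of antibody. WDR5 and H3K4me2 were also mapped in MAF9-transduced Mll1 flox/flox, ER-cre+/- cells, in which 4OHT at 400 nM for 2 days, against EtOH, activates the Cre that removes the floxed alleles, and MLL1 was mapped in MAF9 cells only. Each condition had 1 library per antibody, and the lists hold positions only, so read depth was unknown and an absent peak is a peak that was not called. All percentages below carry 95% Wilson intervals that treat peaks as independent and cover the counting of peaks, with no replicate error, and no test between conditions could be made.

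WDR5 is a scaffold protein that MLL1 and the related SET-domain enzymes share as a core partner when they methylate lysine 4 of histone H3. It binds a short motif of MLL1 and is needed for full methyltransferase activity, and MM-401 occupies the WDR5 surface that receives this motif. WDR5 also belongs to complexes of the other MLL-family enzymes and to further chromatin complexes, so its presence on chromatin does not report MLL1 alone. H3K4me2 marks promoters and enhancers, where the nucleosomes that carry it flank a nucleosome-poor stretch.

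Of the DMSO WDR5 peaks, 5761 were kept under MM-401 (40.3%, 39.5 to 41.1), 3319 were shifted (23.2%, 22.5 to 23.9) and 5209 were absent (36.5%, 35.7 to 37.2). Seen from the MM-401 list, 5852 peaks were kept (34.3%, 33.6 to 35.0), 3647 were shifted (21.4%, 20.8 to 22.0) and 7568 were absent from DMSO (44.3%, 43.6 to 45.1). More peaks were therefore called without a DMSO counterpart than lost one, but with the MM-401 list cut to the length of the DMSO list by dropping its narrowest peaks, the absent shares were 41.1% and 41.6%. By length, the lists covered 3.13 Mb and 3.30 Mb and shared 1.12 Mb, which was 35.9% of the DMSO and 34.1% of the MM-401 bases.

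Other pairs of lists set the scale for these shares. Against the EtOH list, from untreated cells of the other line, 34.7% of the DMSO peaks were kept, 28.5% were shifted and 36.7% (36.0 to 37.5) were absent. The absent share was thus inside the interval found for MM-401, although the EtOH list held 33974 autosomal peaks. Against the 4OHT list the absent share was 38.3% (37.6 to 39.1). MM-401 peaks were absent from EtOH in 44.7% of cases (43.9 to 45.4), about as often as from DMSO. Within the Mll1 flox line, 18.7% of EtOH peaks were kept under 4OHT, 24.3% shifted and 57.0% (56.5 to 57.6) absent. From the 4OHT side, 61.8% (61.3 to 62.3) were absent, and that list held 40439 autosomal peaks. The absent shares of that vehicle and treatment pair were thus higher than those of DMSO and MM-401. Its peaks were also narrower, with a median width of 125 bp in both lists, against 175 bp in DMSO and 150 bp under MM-401. Narrow DMSO and MM-401 peaks were more often absent than wide ones, and the pairs were not compared within width. Of the DMSO H3K4me2 peaks, 69.4% (69.1 to 69.7) were kept and 9.71% (9.53 to 9.89) were absent under MM-401. The H3K4me2 lists covered 95.5 Mb and 89.1 Mb of the autosomes, so their shares cannot be set directly against those of WDR5.

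The limits between the classes did not fall in gaps of the data. HPeak, the caller used for both WDR5 lists, placed peaks on a 25 bp grid, so all widths and gaps are multiples of 25 bp. On this grid, 223 kept DMSO peaks shared only 25 bp with an MM-401 peak. Just outside, 223 shifted peaks had 0 bp between them and the MM-401 peak, and 179 had 25 bp. At the far limit 4 shifted peaks lay at 2000 bp and 10 absent peaks on the next grid step.

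Kept peaks were wider than the others. Kept DMSO peaks had a median width of 250 bp (quartiles 175 to 350 bp), and shifted and absent peaks were alike at 150 bp (quartiles 100 to 200 bp). Under MM-401 the medians were 250 bp for kept peaks and 125 bp for shifted and for absent peaks. Of the DMSO peaks of 75 to 100 bp, 48.9% were absent, 32.4% shifted and 18.7% kept. At 225 to 300 bp the absent share was 27.1% and the shifted share 17.8%, and at 525 to 1000 bp they were 15.2% and 8.83%. Both classes of unmatched peaks therefore shrank with width. Above 1000 bp, 91 of 92 DMSO peaks and all 25 MM-401 peaks were kept.

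**Figure D1:**
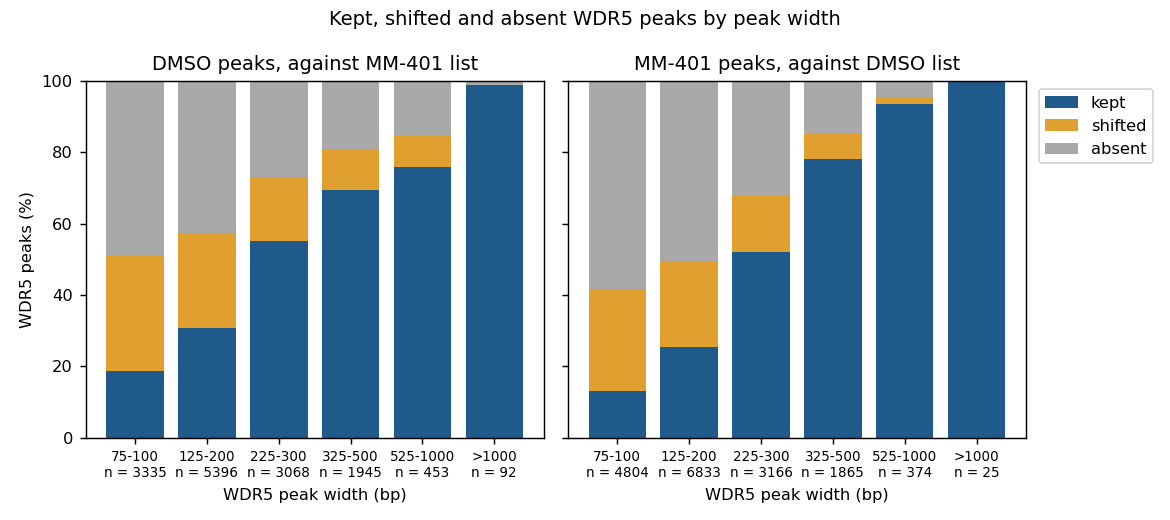
Share of WDR5 peaks (%) that were kept, shifted or absent in 6 classes of peak width (bp), with DMSO peaks on the left and MM-401 peaks on the right and the number of peaks under each bar. The kept share rises from 18.7% to 75.9% over the first 5 classes in DMSO and from 13.2% to 93.6% under MM-401.

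The plot by width shows a steeper rise for the MM-401 list. At 525 to 1000 bp, 93.6% of 374 MM-401 peaks were kept, with 1.87% shifted and 4.55% absent, against 75.9% of 453 DMSO peaks. At 75 to 100 bp the order was the opposite, with 13.2% of 4804 MM-401 peaks and 18.7% of 3335 DMSO peaks kept.

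The added peaks under MM-401 were narrow ones. From DMSO to MM-401 the number of peaks went from 3335 to 4804 at 75 to 100 bp and from 5396 to 6833 at 125 to 200 bp. It was nearly level at 225 to 300 bp, with 3068 and 3166 peaks. It then went from 1945 to 1865 at 325 to 500 bp, from 453 to 374 at 525 to 1000 bp, and from 92 to 25 above 1000 bp. In the Mll1 flox cells the 4OHT over EtOH ratio was 1.04 at 75 to 100 bp and 1.39 at 125 to 200 bp. For MM-401 over DMSO these ratios were 1.44 and 1.27. At 325 to 500 and 525 to 1000 bp 4OHT over EtOH was 0.926 and 0.924, against 0.959 and 0.826. Above 1000 bp it was 0.921, against 0.272 for MM-401 over DMSO.

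The widest WDR5 sites were kept in place and were shorter under MM-401. Where peaks of both lists were merged into sites with a call in each, 107 sites exceeded 1000 bp. Of these, 100 had more WDR5 bases in DMSO, 6 had more under MM-401 and 1 was equal, with medians of 1550 bp and 875 bp. The 771 sites of 525 to 1000 bp had medians of 500 bp and 475 bp, with 401 longer in DMSO and 339 longer under MM-401. Among the 4968 sites up to 500 bp the median was 225 bp in both lists, and 2147 were longer in DMSO and 2374 under MM-401. The shortening was thus found at the top of the width range. Of the 91 kept DMSO peaks above 1000 bp, 33 were covered by 2 or more separate MM-401 peaks, while 2 of the 25 MM-401 peaks above 1000 bp covered 2 or more DMSO peaks.

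Positions are given on mm9, the build named in the submitters' processing notes. The widest kept DMSO peak, chr17:34254126-34257000, was 2875 bp wide in DMSO and met an MM-401 peak of 925 bp, chr17:34255351-34256275. In all, 4 MM-401 peaks covered 1500 bp of it, while 3 EtOH peaks covered 2550 bp and 3 peaks under 4OHT covered 2475 bp. The next widest, chr17:56751526-56754050, measured 2525 bp in DMSO and 850 bp under MM-401, and the EtOH and 4OHT lists covered 2100 bp and 1975 bp of it with 3 peaks each. MM-401 thus covered the fewest bases of the 4 lists at both sites. The widest MM-401 peak, chr1:90173126-90175450, measured 2325 bp. Of it, 2 DMSO peaks covered 1750 bp, 4 EtOH peaks 1175 bp and 3 peaks under 4OHT 975 bp. The next, chr4:137548951-137550325, was 1375 bp wide and lay within a DMSO peak of 1800 bp. Bases were counted within the named peak only. By construction, no other list could therefore cover more of it than the list it was chosen from.

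Most kept peaks had a single counterpart, and it lay close by. There were 5389 such pairs, which held 93.5% of the kept DMSO peaks. The median width was 250 bp in both lists, and 2541 pairs were wider under MM-401, 2409 were wider in DMSO and 439 were equal. The centres were a median of 50 bp apart, with 75% of pairs within 87.5 bp and 95% within 162 bp. The shared bases were a median of 54.5% of the joint length, and 75 pairs had identical positions. The calls therefore marked the same site but seldom the same boundaries.

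Shifted peaks had their counterpart nearby rather than anywhere in the 2 kb allowed. The nearest peak of the other list lay a median of 325 bp away from shifted DMSO peaks and 350 bp from shifted MM-401 peaks. Of all DMSO peaks, 1289 (9.02%) had it within 200 bp without overlap, 860 (6.02%) at 225 to 500 bp, 666 (4.66%) at 525 to 1000 bp and 504 (3.53%) at 1025 to 2000 bp. Absent peaks were far from any counterpart, with medians of 25675 bp for DMSO and 26562 bp for MM-401.

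**Figure D2:**
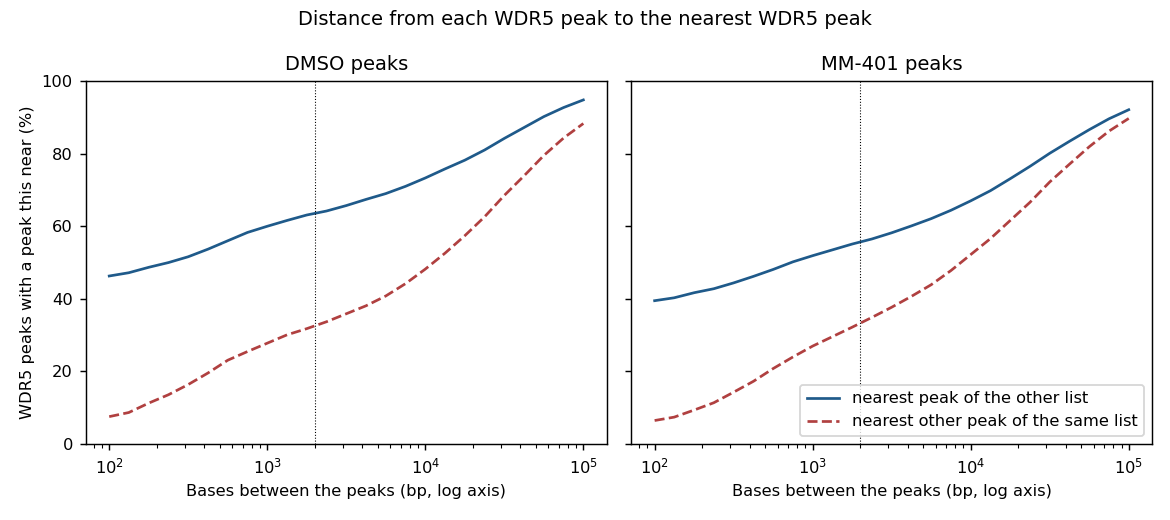
Share of WDR5 peaks (%) with the nearest peak of the other list (solid) or the nearest other peak of the same list (dashed) at or below a given distance (bp between peaks, log axis), for DMSO (left) and MM-401 (right). The dotted line marks the 2000 bp limit, and the median distance of shifted peaks was 325 bp in DMSO and 350 bp under MM-401.

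The curves of distance start apart because of the kept peaks, and the dashed curves show that WDR5 peaks of 1 list also cluster. A nearest partner was not always free. For 872 of the 3319 shifted DMSO peaks (26.3%, 24.8 to 27.8) the nearest MM-401 peak was itself kept over another DMSO peak. From the MM-401 side the number was 1172 of 3647 (32.1%, 30.6 to 33.7). In these cases an extra peak beside a kept site was counted as shifted.

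The other shifted peaks included 1972 pairs in which each was the nearest peak of the other. A median of 225 bp separated them, and the median width was 150 bp in both lists. In 1660 pairs both peaks lay in the same H3K4me2 domain, meaning H3K4me2 peaks of DMSO and MM-401 merged where they overlapped. The MM-401 peak was nearer the midpoint of the domain in 845 pairs and nearer its edge in 810, which gives 51.1% (48.6 to 53.5) toward the midpoint. Kept pairs gave 48.8% (47.3 to 50.3). Neither set leaned beyond its interval to the centre or to the edge.

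The widest shifted peaks showed both short and long gaps. In DMSO, chr9:20682876-20683775 was 900 bp wide and lay 375 bp from an MM-401 peak of 200 bp, and chr15:60654501-60655375 was 875 bp wide and lay 1375 bp from one of 125 bp. Both were met by EtOH peaks of 325 bp. Under MM-401, chr7:25240651-25241325 was 675 bp wide and directly adjoined a DMSO peak of 200 bp, with 0 bp between them. An equally wide peak, chr9:61218776-61219450, lay 1375 bp from a DMSO peak of 75 bp.

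H3K4me2 of the same condition was examined at the centre of each WDR5 peak. In DMSO the centre lay inside an H3K4me2 peak for 76.5% (75.4 to 77.6) of kept, 86.5% (85.3 to 87.6) of shifted and 79.9% (78.8 to 80.9) of absent peaks. Kept peaks, the widest class, were thus the least often inside. Under MM-401 the shares were 86.0% (85.1 to 86.9), 95% (94.2 to 95.6) and 75% (74.0 to 75.9), and there the absent peaks were lowest. The MM-401 absent class also had 14.7% of its centres with no H3K4me2 within 1 kb on either side, against 2.67% of kept MM-401 peaks and 5.93% of absent DMSO peaks. Over all classes 80.1% of DMSO and 83.0% of MM-401 peaks were inside their own H3K4me2, but with 1 H3K4me2 list for both the order turned. Inside MM-401 H3K4me2 lay 87.8% of DMSO and 83.0% of MM-401 peaks, and inside DMSO H3K4me2 80.1% and 76.7%.

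The lower share at kept DMSO peaks was a local dip. H3K4me2 was called at 83.3% (82.3 to 84.3) of them 200 bp before the centre, at 76.5% at the centre and at 84.0% (83.0 to 84.9) 200 bp after it. Absent DMSO peaks gave 79.7%, 79.9% and 79.8% at the same points, and shifted peaks gave 85.3%, 86.5% and 85.9%. At 1000 bp on either side kept and absent peaks were nearly equal, at 54.0% and 53.8% against 54.8% and 55.7%, and shifted peaks were higher, at 78.6% and 77.4%.

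**Figure D3:**
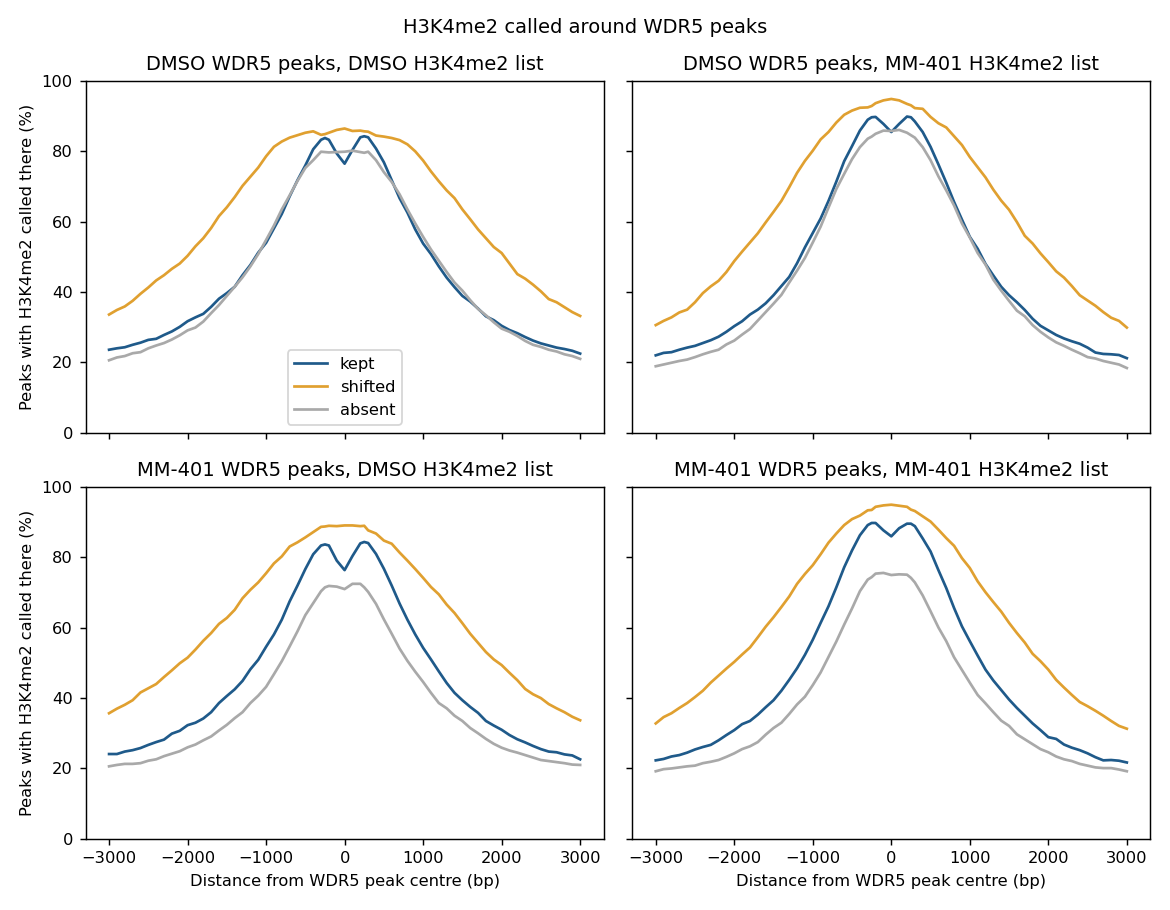
Share of WDR5 peaks (%) with an H3K4me2 peak called at each distance (bp) from the WDR5 centre, for kept, shifted and absent peaks, with DMSO WDR5 above, MM-401 WDR5 below, DMSO H3K4me2 on the left and MM-401 H3K4me2 on the right. Kept peaks dip at the centre in all 4 panels, from 83.3% to 76.5% in DMSO H3K4me2 and from 89.8% to 85.5% in MM-401 H3K4me2 for the DMSO peaks.

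The dip corresponded to WDR5 peaks in a valley of H3K4me2, defined as a centre outside every H3K4me2 peak with one within 1 kb on both sides. This definition was added after the lists had been examined. In DMSO, 15.6% (14.7 to 16.6) of kept, 10.9% (9.89 to 12) of shifted and 10.7% (9.88 to 11.6) of absent peaks lay in a valley. Under MM-401 the shares were 8.10%, 2.96% and 4.78%. Over all peaks they were 12.7% in DMSO and 5.53% under MM-401.

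Valleys went with width. In DMSO the share rose from 9.33% at 75 to 100 bp to 15.0% at 225 to 300 bp, 19% at 525 to 1000 bp and 55.4% (51 of 92 peaks) above 1000 bp. Within the classes from 225 bp upward, kept and absent peaks had overlapping intervals, for example 18.5% (16.5 to 20.7) against 18.4% (14.8 to 22.6) at 325 to 500 bp. At 75 to 100 bp the intervals also met, at 12.5% (10.1 to 15.3) and 8.71% (7.43 to 10.2). At 125 to 200 bp they were 11.5% (10.0 to 13.1) and 9.43% (8.30 to 10.7). Part of the higher valley share of kept DMSO peaks thus went with their width, and in these narrow classes the kept share was still the higher.

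The same DMSO WDR5 peaks lay in valleys less often when the MM-401 H3K4me2 list was used. Their share was 5.89% over all widths and 8.70% (8 of 92 peaks) above 1000 bp, against 12.7% and 55.4% in the DMSO H3K4me2 list. Of the 900 kept DMSO peaks in a valley, 595 (66.1%) lay inside an H3K4me2 peak of MM-401, and 278 (30.9%) were again in a valley. In the opposite direction, 129 of 4409 kept peaks inside DMSO H3K4me2 (2.93%) lay in a valley of MM-401 H3K4me2. H3K4me2 calls thus more often ran across the WDR5 site in the MM-401 list than in the DMSO list. The EtOH H3K4me2 list, from untreated cells of the other line, put still fewer DMSO WDR5 peaks in a valley, 3.17% of all and 4.53% of kept peaks, and the 4OHT list 7.62% and 10.2%. Of the 4 H3K4me2 lists, DMSO had the highest share. The depth of the H3K4me2 libraries, which can decide whether adjacent calls join, was unknown, and its part was not tested. The second widest DMSO peak, chr17:56751526-56754050, lay in a valley of both lists.

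Inside H3K4me2 peaks, position was measured from the midpoint (0) to the edge (1). A centre within 50% of that distance was called inner and any other outer, and even placement would put 50% in each. All classes leaned to the midpoint. In DMSO the inner share was 65.8% (64.4 to 67.2) for kept, 56.7% (54.8 to 58.5) for shifted and 62.9% (61.4 to 64.3) for absent peaks. Under MM-401 it was 70.1% for kept, 66.5% for shifted and 68.2% for absent peaks, and 68.5% over all peaks against 62.5% in DMSO. The same DMSO WDR5 peaks were inner in 68.2% of cases when placed in MM-401 H3K4me2, so the higher value moved with the H3K4me2 list.

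**Figure D4:**
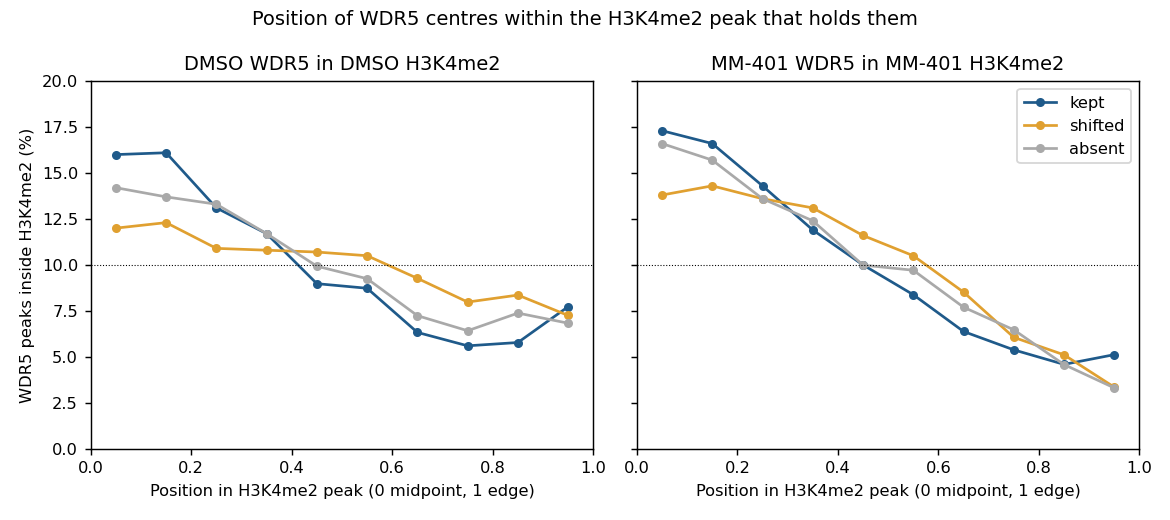
Distribution of WDR5 centres (%) over 10 equal steps from the midpoint (0) to the edge (1) of the H3K4me2 peak that holds them, for kept, shifted and absent peaks in DMSO (left) and under MM-401 (right), with the dotted line at the 10% of even placement. The first step holds 16.0% of kept and 12% of shifted DMSO peaks, and 17.3% and 13.8% of MM-401 peaks.

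The plot of position shows shifted peaks as the flattest class in both lists. In DMSO the last step before the edge held 7.73% of kept, 7.25% of shifted and 6.83% of absent peaks, so kept peaks rose again at the very edge. The difference between kept and absent peaks was small. In DMSO it was 2.94 percentage points (0.906 to 4.96), and 1.29 points (-0.568 to 3.16) in the MM-401 H3K4me2 list. Under MM-401 it was 1.93 points, and it turned to -0.667 when only the widest 50% of each list was used.

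Shifted peaks sat in longer H3K4me2 peaks. The H3K4me2 peak that held the centre had a median width of 2125 bp for kept and 2775 bp for shifted DMSO peaks, with absent peaks close to kept ones, and of 2400 bp for kept, 3250 bp for shifted and 2150 bp for absent peaks under MM-401. As H3K4me2 width rose over the 5 classes from 75 to 500 bp to above 4000 bp, the shifted share of DMSO peaks rose through 11.9, 13.3, 18.9, 28.7 and 35.9%. The absent share fell over the same classes from 46.3% to 27.9%, and the kept share moved between 44.4% and 36.2%. The flatter placement of shifted DMSO peaks depended on this width: in H3K4me2 peaks of 1025 to 2000 bp, 48.4% (44.7 to 52.2) of shifted and 73.2% (70.8 to 75.4) of kept peaks were inner. Above 4000 bp the shares were 59.8% (56.3 to 63.2) and 56.9% (53.4 to 60.3).

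Neighbours were other WDR5 peaks of the same list within 5 kb. In DMSO, 63.7% (62.0 to 65.3) of shifted peaks had one, against 33.4% (32.2 to 34.6) of kept and 31.2% (30.0 to 32.5) of absent peaks. Under MM-401 the shares were 67.4% for shifted, 40.2% for kept and 32.1% for absent peaks. Shifted peaks had a neighbour more often than the other classes. Their next own-list peak was a median of 1.05 kb away in DMSO, against 15.3 kb for kept and 16.9 kb for absent peaks. Part of this follows from the class rule. For 26.3% of shifted DMSO and 32.1% of shifted MM-401 peaks, the nearest partner was kept over another peak of their own list. That other peak then lay near the shifted one, and how much of the excess this made was not tested. The excess of shifted peaks was present in each width class up to 500 bp, for instance 65.1% of shifted and 36.8% of kept peaks at 75 to 100 bp, and 69.3% and 33.8% at 325 to 500 bp.

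Kept and absent peaks differed less. In DMSO the difference was 2.15 percentage points (0.392 to 3.89), and it turned to -0.510 (-2.35 to 1.34) when 50% of a peak had to be covered. Under MM-401 it was 8.09 points (6.45 to 9.73) and kept its direction under every alternative tried, between 4.14 and 10.0 points. It was widest at 75 to 100 bp, where 50.8% of kept and 31.5% of absent MM-401 peaks had a neighbour. Part of these differences also follows from the class rule. MM-401 peaks under the same DMSO peak were all kept and were neighbours, and 184 DMSO peaks overlapped 2 or more MM-401 peaks. In the other direction, 100 MM-401 peaks overlapped 2 or more DMSO peaks. How much of each difference this made was not tested.

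**Figure D5:**
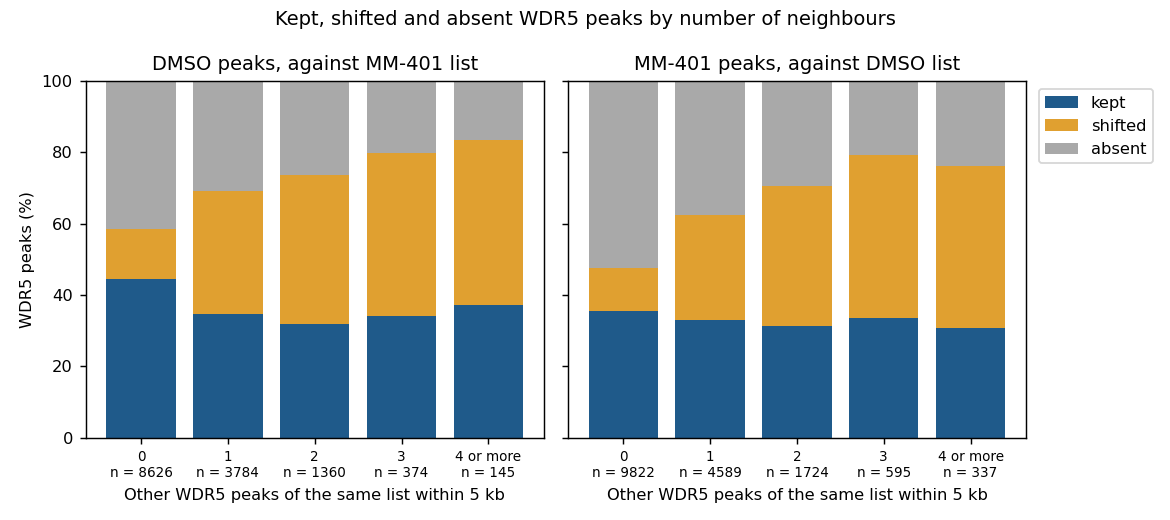
Share of WDR5 peaks (%) that were kept, shifted or absent by the number of other WDR5 peaks of the same list within 5 kb, with DMSO peaks on the left and MM-401 peaks on the right and the number of peaks under each bar. In DMSO the shifted share rises from 14.0% without a neighbour to 46.2% with 4 or more, while the absent share falls from 41.5% to 16.6%.

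Read by number of neighbours, the kept share of DMSO peaks was highest without any, at 44.5%, and lay between 31.8% and 37.2% with 1 or more. For MM-401 peaks it was 35.6% without a neighbour and between 30.6% and 33.6% otherwise. Over all widths, peaks with a neighbour were thus less often absent and less often kept. At 75 to 100 bp MM-401 peaks went the other way, with 15.0% (13.5 to 16.5) kept with a neighbour and 11.8% (10.6 to 13) without. Adjacent peaks within 5 kb were also counted as pairs. Of 3235 adjacent DMSO pairs, both peaks were kept in 439 (13.6%), 1 of them in 1314 (40.6%) and neither in 1482 (45.8%). The 4244 adjacent MM-401 pairs gave 521, 1721 and 2002. Pairs with 1 kept peak would be common without any link between adjacent peaks, and no expected share was computed. These counts therefore do not show whether adjacent peaks shared their state.

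WDR5 was also counted by H3K4me2 domain rather than by peak. A shared domain needs no overlap of peaks, so its share cannot be set against the 40.3% of DMSO peaks kept. WDR5 was called in 10442 domains in DMSO and in 11443 under MM-401, of 104624 in all. Both conditions shared 6233 of these, which is 59.7% (58.7 to 60.6) of those with WDR5 in DMSO and 54.5% (53.6 to 55.4) of those with it under MM-401. The share rose with the number of DMSO peaks in the domain, from 56.6% with 1 peak to 70.1% with 2 and 86.4% (348 of 403) with 3 or more, and these domains were also longer, with medians of 2300, 3650 and 5825 bp. Among the shared domains, 4217 had the same number of WDR5 peaks in both conditions, 1163 had more under MM-401 and 853 had fewer. Of the shifted DMSO peaks that lay in a domain, 87.5% (86.3 to 88.6) had an MM-401 WDR5 peak in the same domain. Of the absent ones, 7.09% (6.38 to 7.87) did. Both shares follow largely from the class rule, since shifted peaks had an MM-401 peak within 2 kb and absent peaks had none.

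Domains with WDR5 in DMSO alone still carried H3K4me2 under MM-401. Of these 4209 domains, 97.8% (97.3 to 98.2) had H3K4me2 in both lists, and their median H3K4me2 length was 2075 bp in DMSO and 2050 bp under MM-401. The 5210 domains with WDR5 under MM-401 alone had 1850 bp in both, and the 6233 shared domains 2625 bp in both. The 88972 domains without WDR5 were short, at 250 bp and 175 bp, and 47.9% of them had H3K4me2 in both lists. Within each of these groups with WDR5 the median called length of H3K4me2 was nearly the same in both conditions. H3K4me2 covered fewer bases under MM-401 than in DMSO in 50.1% (48.6 to 51.6) of the domains with WDR5 in DMSO alone and in 45.8% (44.6 to 47.0) of the shared ones. The share was 47.6% (46.3 to 49.0) for domains with WDR5 under MM-401 alone and 60.7% (60.4 to 61.1) for those without WDR5. The height of the mark is not in the lists.

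The domain with the most WDR5 peaks, chr1:75204251-75216875, was 12625 bp long and showed how the classes mixed. It held 8 DMSO peaks, 3 kept and 5 shifted, and 7 MM-401 peaks, 3 kept, 3 shifted and 1 absent. The widest DMSO peak in it, of 325 bp at chr1:75212026-75212350, overlapped an MM-401 peak of 300 bp at chr1:75211926-75212225. The first DMSO peak, chr1:75205626-75205800, ended directly where an MM-401 peak of 275 bp began and was therefore shifted with 0 bp between them. That MM-401 peak, chr1:75205801-75206075, overlapped the next DMSO peak, chr1:75206051-75206225. The EtOH list had 2 WDR5 peaks in this domain and the 4OHT list 4.

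Long H3K4me2 domains could also lose or gain every WDR5 call. The longest with WDR5 in DMSO alone, chr3:131138876-131157350, was 18475 bp long with 2 DMSO peaks, none with MM-401, and 3 in each Mll1 flox list. Its H3K4me2 covered 18075 bp in DMSO and 18325 bp under MM-401. The longest with WDR5 under MM-401 alone, chr5:108144701-108164775, was 20075 bp long with 1 MM-401 peak, and the EtOH and 4OHT lists had 4 and 2 there. Both domains thus had WDR5 calls in the other line.

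The widest absent peaks likewise had their centres within H3K4me2 of both conditions. In DMSO, chr8:98424751-98426450 was 1700 bp wide, 4300 bp from the nearest MM-401 peak, and was met by an EtOH peak of 550 bp and a 4OHT peak of 300 bp. The next, chr3:87709826-87710825, was 1000 bp wide and 3750 bp from an MM-401 peak, with an EtOH peak of 850 bp and a 4OHT peak of 800 bp over it. These were called in 3 of the 4 WDR5 lists. Under MM-401, chr3:97860551-97861250 was 700 bp wide and 10475 bp from the nearest DMSO peak, with calls of 100 bp in EtOH and 175 bp under 4OHT. The peak chr7:79405701-79406375, of 675 bp and 3800 bp from a DMSO peak, was not called in either Mll1 flox list.

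The Mll1 flox lists, which the classes did not use, overlapped kept peaks most often. EtOH WDR5 overlapped 47.4% (46.1 to 48.7) of kept, 30.1% (28.6 to 31.7) of shifted and 23.7% (22.6 to 24.9) of absent DMSO peaks, and 4OHT WDR5 overlapped 39.4%, 28.2% and 21.7%. Kept peaks also exceeded absent ones within width: at 75 to 100 bp EtOH overlapped 28.3% (24.9 to 32.0) of kept and 14.0% (12.4 to 15.7) of absent peaks, and at 325 to 500 bp 65.0% (62.4 to 67.5) and 52.7% (47.6 to 57.7). For MM-401 peaks the EtOH shares were 47.1% of kept, 21.2% of shifted and 14.2% (13.5 to 15.0) of absent peaks. Absent MM-401 peaks were thus less often called in the other line than absent DMSO peaks were. Within width this also held, with 7.22% (6.32 to 8.24) of absent MM-401 and 14.0% of absent DMSO peaks at 75 to 100 bp, and with 34.1% (28.7 to 39.8) and 52.7% at 325 to 500 bp.

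Over all widths, MLL1 peaks overlapped few WDR5 peaks of any class. The DMSO MLL1 list, made with MACS, overlapped 3.42% (2.98 to 3.92) of kept, 3.86% (3.25 to 4.57) of shifted and 2.98% (2.55 to 3.47) of absent DMSO peaks. The MM-401 MLL1 list, made with HPeak, overlapped 6.66% (6.05 to 7.33) of kept, 7.43% (6.62 to 8.33) of shifted and 4.64% (4.19 to 5.14) of absent MM-401 peaks. Within width the intervals of kept and absent MM-401 peaks overlapped, with 5.53% (4.55 to 6.71) of kept and 4.86% (4.19 to 5.62) of absent peaks at 125 to 200 bp, and 6.30% (5.23 to 7.58) and 6.71% (5.32 to 8.41) at 225 to 300 bp. Shifted MM-401 peaks were higher in these classes, at 8.12% (6.89 to 9.54) and 10.6% (8.16 to 13.6). The callers differ, so the 2 conditions were not compared for MLL1.

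The MM-401 list had 1.19 times as many peaks as the DMSO list over all autosomes and more on 18 of 19, with ratios from 1.14 to 1.34. On chromosome 2 it had 1133 peaks against 1201, a ratio of 0.943 (0.870 to 1.02). There the counts went from 266 to 292 at 75 to 100 bp and from 448 to 460 at 125 to 200 bp. They went from 259 to 227 at 225 to 300 bp and from 176 to 128 at 325 to 500 bp. At 525 to 1000 bp they went from 43 to 23. Over all autosomes the ratios of these classes were, in the same order, 1.44, 1.27, 1.03, 0.959 and 0.826. Chromosome 2 thus fell short of the autosomes in the narrow classes as well as in these wider ones. Chromosome 2 was singled out after the counts had been seen. The H3K4me2 ratio of chromosome 2 was 0.857, in the range of 0.852 to 0.904 over the autosomes, and its 4OHT over EtOH ratio for WDR5 was 1.10, in the range of 1.08 to 1.33. The kept share of DMSO peaks was lowest on chromosome 2, at 35.4% (32.7 to 38.1), and highest on chromosome 1, at 47.9% (45.4 to 50.4). The other autosomes lay between 37.6% and 42.0%. From the MM-401 side chromosome 2 was not low. Its kept share was 38.5% (35.7 to 41.3), against 34.3% (33.6 to 35.0) over all autosomes.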

How the data were processed

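The authors deposited 1 peak list per ChIP library, of which the WDR5 and H3K4me2 lists of 4 conditions and the MLL1 lists of 2 were read. The deposited columns used are peak starts and ends, with no score, height or read count. The submitters' processing notes name Bowtie and mm9, without a role. All lists but DMSO MLL1, which is a MACS list, lie on the 25 bp grid of HPeak. Its thresholds are not given in the sources used here. The 4 inputs were not used here.

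Overlaps, gaps and positions were computed with Python 3.11.15 and numpy 2.4.6 on 1-based inclusive coordinates. The calling of kept, shifted and absent peaks was tested on 7023 simulated peaks, made from DMSO WDR5 peaks that lay far apart. For the real DMSO list, bedtools 2.31.1 gave a second count of these classes. Positions and neighbours were checked on a few planted peaks only. Width classes were 75 to 100, 125 to 200, 225 to 300, 325 to 500, 525 to 1000 and above 1000 bp. Peaks named are the 2 widest of each class and list, plus the H3K4me2 domain with the most WDR5 peaks and the widest with WDR5 in 1 condition. The members, classes and rules were chosen with earlier results of these data known. No gene names or sequences are given, because the annotation at hand is on another build. Alternatives changed the overlap, the distance limit, the window, the lists' length and the H3K4me2 list.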

Additional observations from a re-analysis of the deposited data

Results flagged for a closer look

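Measures of WDR5 position relative to H3K4me2 drew attention because they moved in opposite directions under MM-401 and under 4OHT. In each case there was 1 library per condition, and the difference between the cell lines was not tested. The share of WDR5 peaks with the centre inside H3K4me2 moved by 2.99 percentage points from DMSO to MM-401 (80.1% to 83.0%) and by -8.96 points from EtOH to 4OHT (52.9% to 44.0%). The first of these turned with the H3K4me2 list held fixed, since 87.8% of DMSO and 83.0% of MM-401 WDR5 peaks lay inside MM-401 H3K4me2. The inner share among those inside moved by 6.02 points (62.5% to 68.5%) and by -8.07 points (67.1% to 59.0%), and the DMSO WDR5 peaks placed in MM-401 H3K4me2 already gave 68.2%. The share in a valley moved by -7.20 points (12.7% to 5.53%) and by 2.58 points (2.13% to 4.71%), and the DMSO WDR5 peaks gave 5.89% in MM-401 H3K4me2. The cell line and the treatment changed together between these pairs and cannot be told apart.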

How the results depend on the processing

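No paired analysis was possible because each condition has 1 library, and no replicate could be left out. The depth of every library was unknown, so whether an uncalled peak reflects less WDR5 or fewer reads cannot be told apart. Using all chromosomes moved no share beyond its interval. Requiring 50% of a peak to be covered gave 31.3% kept and 32.2% shifted in DMSO, and 27.5% and 28.2% under MM-401, and the neighbour difference between kept and absent DMSO peaks turned to -0.510 points. With a distance limit of 1000 bp, 19.7% were shifted and 40.0% absent in DMSO, and 17.6% and 48.1% under MM-401. With 5000 bp these were 28.1% and 31.6%, and 27.1% and 38.7%. With the widest 50% of each list, 46.8% were kept, 10.9% shifted and 42.3% absent in DMSO, and 39.6%, 10.4% and 50% under MM-401, where the neighbour difference was 4.14 points and the inner difference -0.667. With the MM-401 list reduced to its widest peaks at the length of the DMSO list, the shares were 38.2%, 20.7% and 41.1% in DMSO and 38.5%, 19.9% and 41.6% under MM-401, so the larger absent share of MM-401 was no longer outside the intervals. Standardising MM-401 peaks to the width classes gave a neighbour difference of 10.0 points and an inner difference of 0.0313, a window of 2000 bp gave a neighbour difference of 9.94, and the DMSO H3K4me2 list gave an inner difference of 0.102, while the DMSO inner difference was 1.29 (-0.568 to 3.16) in the MM-401 H3K4me2 list. The shares change with overlap, distance limit and list length by the construction of the classes. For the differences that moved or reversed, the cause was not tested. The alternatives for the valley share and for chromosome 2 were chosen after seeing the data. The valley share was higher in DMSO by 7.20 points, by 5.53 with flanks of 500 bp, by 7.52 with 2000 bp, by 8.68 with the widest 50%, and by 6.84 with the DMSO WDR5 peaks against both H3K4me2 lists. The chromosome 2 ratio was 0.814 (0.729 to 0.910) with the widest 50%.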
